A study of Mus musculus with 12 samples.

Results

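The 33 genes described here mark the lymphocytes of the lung: 7 genes of B cells, 17 of T cells, and 9 of natural killer (NK) cells and cytotoxic T cells. They were listed by gene name with no threshold on a measured value, although earlier results of these data were known when the list was made. A gene was read from a probe set, a group of short probes for the same transcript, that was annotated to that gene alone, and where several qualified the one with the highest mean over the 12 arrays was taken. By that rule 32 of the 33 were among the 18193 genes on the array. The T cell kinase gene Lck was not analysed here.

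Whole lungs of mice 8 to 12 weeks old gave the RNA, and 12 Affymetrix arrays in 4 groups of 3 measured it. The group labelled rhPBEF & VALI received recombinant human pre-B-cell colony-enhancing factor (PBEF) into the trachea. Each mouse got 20 µg, dissolved in water at 1.5 µl per gram of body weight, and the lungs were then ventilated with breaths of 30 ml/kg over 4 hours. The group labelled rhPBEF received the protein alone, the group labelled VALI received the ventilation alone, and control mice received phosphate-buffered saline. Strain, sex, the interval between instillation and collection, and any saline given to ventilated mice are not stated in the labels. Nor is it stated that replicates were different animals, and the p-values therefore reflect array-to-array spread, which may be technical. Every comparison with control used the same 3 control arrays.

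B cells carry the antigen receptor signalling chains encoded by Cd79a and Cd79b and mature into antibody-secreting plasma cells. T cells signal through the CD3 chains of their own receptor, and NK cells and cytotoxic T cells kill target cells with perforin and granzymes. Resting lung holds all of these cells in its tissue and in its blood vessels. PBEF, the secreted form of the enzyme encoded by Nampt, was named for an effect on B cell precursors in culture, where it acted together with interleukin 7 and stem cell factor.

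Defining genes of lung were high in every array: the surfactant gene Sftpc lay between 14.76 and 14.97 and the club cell gene Scgb1a1 between 14.82 and 15.02 on the log2 scale in the 12 arrays. VALI replicate 2 stood apart from the others. It held the highest value of the 12 arrays for 15.7% of all 18193 genes and the lowest for 19.3%. The 12 neutrophil marker genes averaged 1.81 to 3.48 above the control mean (log2) in rhPBEF & VALI arrays, 2.12 to 2.53 in rhPBEF arrays and 0.70 to 2.75 in VALI arrays, against -0.15 to 0.11 in control arrays. Skeletal muscle markers were high in rhPBEF replicate 2 and VALI replicate 3, at 2.53 and 1.79 above the control mean. All values below are levels or differences on the log2 scale, and in whole lung fewer cells of a type cannot be told apart from less RNA per cell.

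None of the lymphocyte genes passed the test in any comparison. Of the 32 genes, 24 had a mean over the 12 arrays above the filter for low values at 6.42 and were tested with limma among 12921 genes, with Benjamini-Hochberg adjustment and a threshold of 0.05. The 8 below it were Tbx21, Cd27, Cd5, Cd28, Cr2, Eomes, Cd247 and Ncr1. Ncr1, at 6.418, was just below the filter and Blk, at 6.58, just above, and in 0 of the 24 did a group mean fall below it. For rhPBEF & VALI against control 0 of 24 passed, where 8.79% of all tested genes did, and for rhPBEF against control 0 of 24 passed, where 1.22% did. The share over all tested genes was 0.00774% for VALI against control, 0.325% for rhPBEF & VALI against VALI, 0.00774% for rhPBEF & VALI against rhPBEF, and 0% for the interaction, again with 0 of the 24. The interaction is the effect of ventilation in mice given PBEF minus its effect in mice without it. The smallest adjusted p of a lymphocyte gene was 0.149 for rhPBEF & VALI, 0.239 for rhPBEF and 0.282 for VALI against control. The zero counts did not hold under every setting. With array weights 7 of 24 passed in rhPBEF & VALI against control, where 44.7% of all tested genes did, and 2 of 24 in rhPBEF, where 11.2% did, so both shares of the lymphocyte genes were below those of all genes. With the arrays of the other 2 groups left out of the fit Cd3d and Il7r passed in rhPBEF & VALI, where 8.73% of all tested genes did.

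At an unadjusted p below 0.05, 3 of 24 lymphocyte genes differed between rhPBEF & VALI and control, where 27.5% of all tested genes did. They were Cd3d and Il7r, higher, and Cd2, lower. In rhPBEF against control the 2 genes were Cd3d and Cd8b1, both higher, where 18.3% of all tested genes were past that level. In VALI against control Blk alone was past it, higher, where 15.5% of all tested genes were. The count was 0 of 24 for rhPBEF & VALI against VALI (9.98% of all tested genes) and 0 for rhPBEF & VALI against rhPBEF (3.77%). In the interaction it was 1, Blk, where the share of all tested genes was 2.23%. Each of these shares of the lymphocyte genes was below that of all genes, apart from the interaction.

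The 95% intervals, unadjusted for the number of genes, show how large a difference these arrays leave room for. In rhPBEF & VALI against control they stayed within 2-fold either way for 20 of 24 genes, the exceptions being Ms4a1, Il7r, Gzma and Gzmb. In rhPBEF against control they did so for 22, with Il7r and Gzma outside, and in VALI against control for 22, with Gzma and Gzmb outside. The median difference over the 32 genes was 0.06 in rhPBEF & VALI, 0.006 in rhPBEF and 0.03 in VALI against control. Over all 18193 genes the same medians were -0.04, -0.05 and -0.004.

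**Figure D1:**
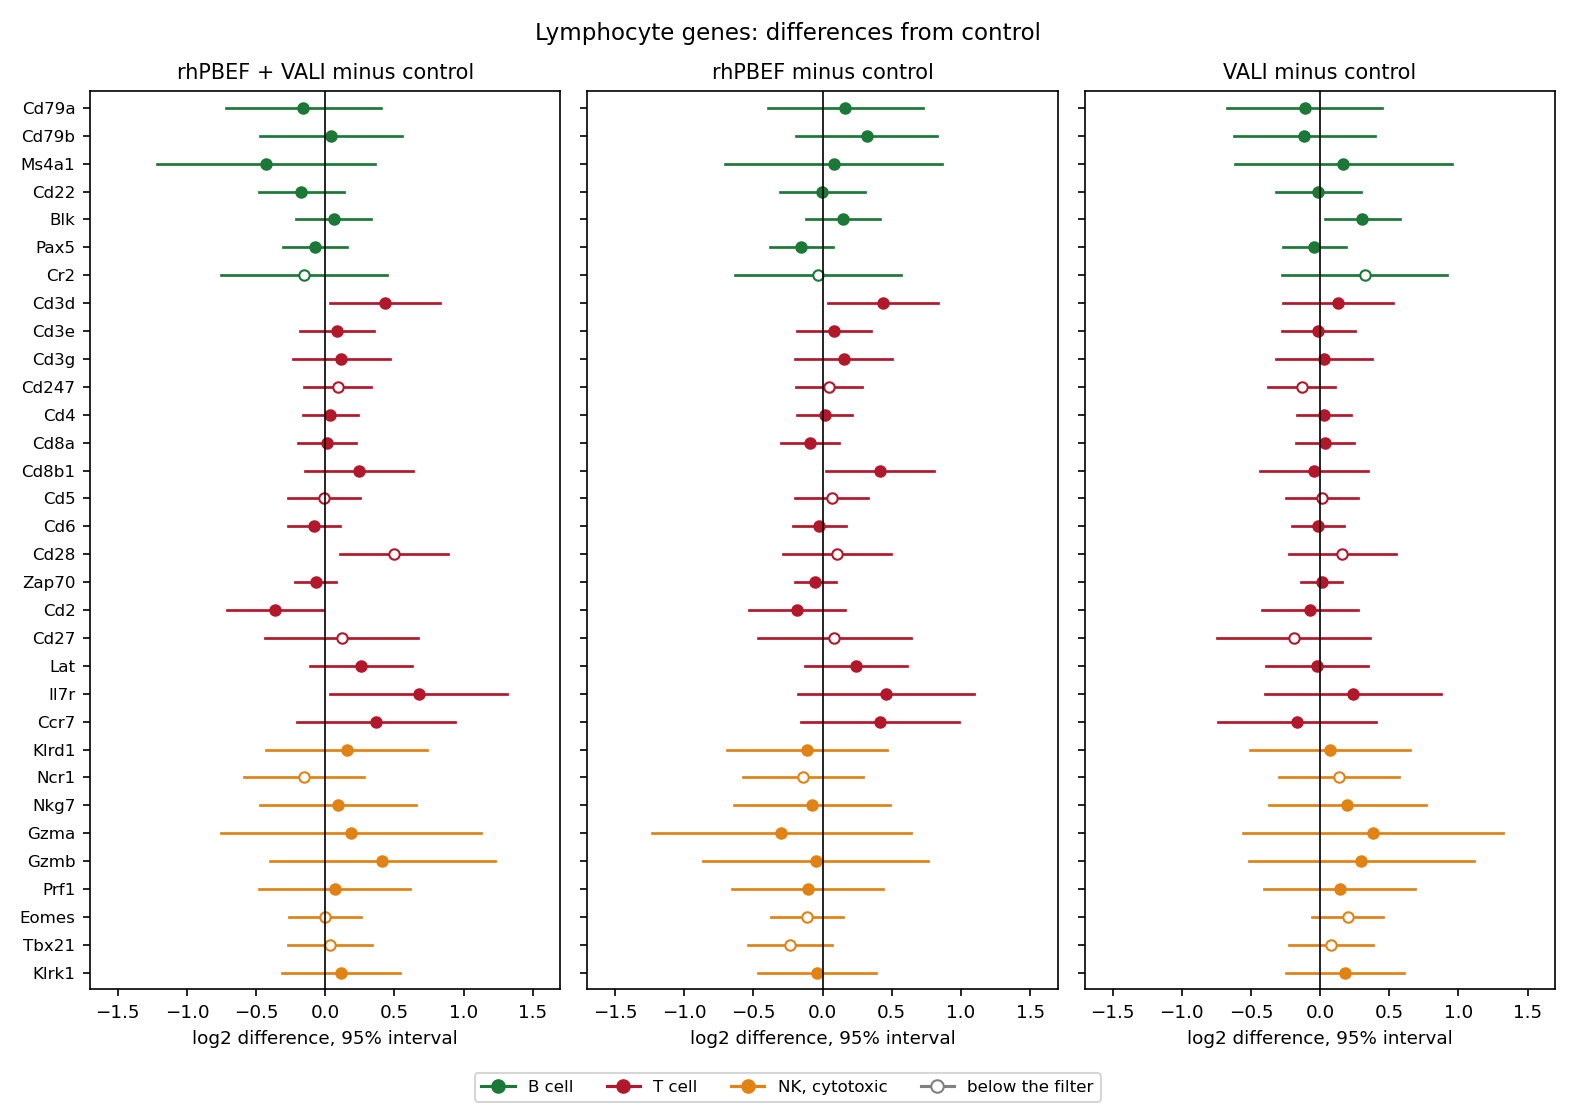
Log2 difference from control (horizontal axis) of the 32 lymphocyte genes in the rhPBEF & VALI, rhPBEF and VALI groups, with 95% intervals from the limma fit and n = 3 arrays in each group. Filled points are the 24 tested genes and open points the 8 below the filter; most intervals span 0. Those of Il7r, Cd3d and Cd28 in rhPBEF & VALI, Cd3d and Cd8b1 in rhPBEF and Blk in VALI lie above it, and that of Cd2 in rhPBEF & VALI lies below it, but none of the tested genes passed the adjusted threshold and Cd28 was not tested.

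No B cell gene passed the test, and these genes parted widely between the ventilated lungs. In rhPBEF & VALI 5 of 7 were lower than in control, with a median of -0.15 beside -0.04 over all genes. Against rhPBEF 6 of 7 were lower (median -0.17, beside 0.01 over all genes), and against VALI 6 of 7 (-0.16, beside -0.03). The signs were mixed for rhPBEF against control, with 4 of 7 positive, and for VALI, with 3 of 7 positive. Over the 7 B cell genes the mean was -0.04, -0.30 and -0.04 relative to control in rhPBEF & VALI arrays, 0.19, 0.13 and -0.09 in rhPBEF arrays, and -0.34, 0.49 and 0.07 in VALI arrays, against 0.02, -0.05 and 0.03 in control arrays. The SD between VALI arrays was 0.41, against 0.04 between control arrays. VALI replicate 2 was the highest of the 12 arrays for 5 of the 7 genes, Cd79a, Ms4a1, Cd22, Blk and Cr2, and VALI replicate 1 was the lowest for 3, Cd79a, Cd79b and Ms4a1. VALI replicate 1 was the lowest array for 3.87% of all genes.

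Ms4a1 encodes CD20, a surface protein of mature B cells. Its level was 7.52, 7.29 and 7.65 in rhPBEF & VALI arrays, 8.27, 8.08 and 7.63 in rhPBEF arrays, and 7.27, 9.05 and 7.93 in VALI arrays, against 8.15, 7.98 and 7.61 in control arrays. The highest and the lowest of the 12 values were both from ventilated lungs without PBEF, and every pair of groups overlapped. The difference of rhPBEF & VALI from control was -0.43 ± 0.36 (SE, adjusted p = 0.47 in limma) and from VALI -0.60 ± 0.36 (adjusted p = 0.622). VALI differed from control by 0.17 ± 0.36 (adjusted p = 0.831), and by -0.31 without VALI replicate 2.

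Cd79a, an antigen receptor signalling chain, had 7.90, 7.56 and 8.09 in rhPBEF & VALI arrays, 8.26, 8.31 and 7.95 in rhPBEF arrays, and 7.22, 8.41 and 8.07 in VALI arrays, against 7.99, 7.87 and 8.17 in control arrays. Cd79b, its partner chain, had 8.31, 8.27 and 8.59 in rhPBEF & VALI arrays, 8.85, 8.77 and 8.38 in rhPBEF arrays, and 7.62, 8.38 and 8.70 in VALI arrays, against 8.30, 8.27 and 8.46 in control arrays. Both were lowest in VALI replicate 1, and no pair of groups was separated. In rhPBEF against control Cd79b differed by 0.32 ± 0.23 (adjusted p = 0.496) and Cd79a by 0.16 ± 0.25 (adjusted p = 0.777).

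Cr2, the complement receptor of mature B cells and follicular dendritic cells, showed the most isolated value. It lay at 6.09, 5.72 and 5.95 in rhPBEF & VALI arrays, 6.01, 5.89 and 6.22 in rhPBEF arrays, and 5.98, 7.23 and 5.97 in VALI arrays, against 6.02, 6.04 and 6.15 in control arrays. VALI replicate 2 was thus above every other array by more than the whole range of the other 11. Blk, a B cell kinase of the Src family, had 6.55, 6.46 and 6.55 in rhPBEF & VALI arrays, 6.64, 6.75 and 6.42 in rhPBEF arrays, and 6.56, 7.03 and 6.70 in VALI arrays, against 6.54, 6.38 and 6.45 in control arrays. The VALI arrays were all above the control arrays and all above the rhPBEF & VALI arrays.

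For Blk the difference of VALI from control was 0.31 ± 0.12 (adjusted p = 0.282), and that of rhPBEF & VALI from VALI was -0.24 ± 0.12 (adjusted p = 0.546). The interaction for Blk was -0.39 ± 0.17, with an unadjusted p of 0.045 and an adjusted p of 0.998. Cd22, an inhibitory receptor of B cells, had 8.54, 8.02 and 8.48 in rhPBEF & VALI arrays, 8.66, 8.54 and 8.35 in rhPBEF arrays, and 8.37, 8.68 and 8.47 in VALI arrays, against 8.55, 8.50 and 8.51 in control arrays. All treated groups overlapped the control arrays, and the difference of rhPBEF & VALI from control was -0.17 ± 0.14 (adjusted p = 0.456). Pax5, the transcription factor that holds B cell identity, lay between 6.55 and 6.95 over the 12 arrays.

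**Figure D2:**
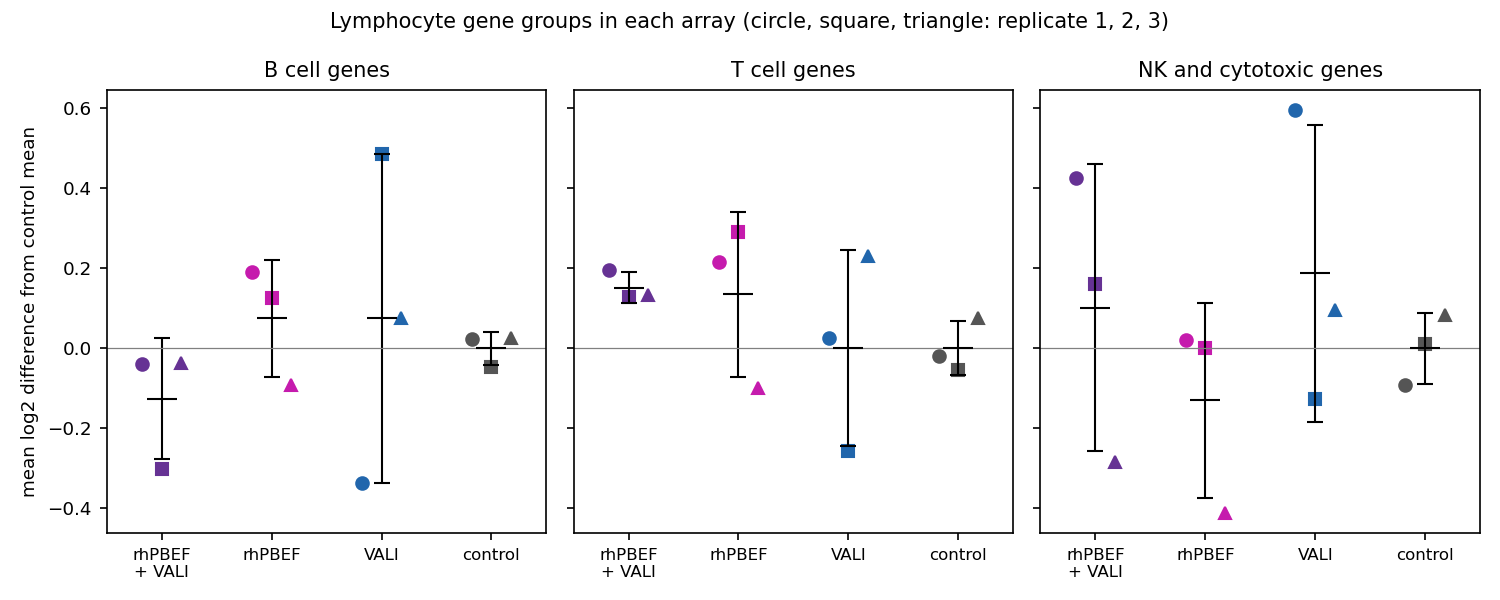
Mean log2 difference from the control mean (vertical axis) over the 7 B cell, 16 T cell and 9 NK and cytotoxic genes in each of the 12 arrays, with bars for the group mean ± SD (n = 3). B cell genes ran from -0.34 to 0.49 between VALI arrays, and control arrays stayed within -0.09 and 0.08 in all 3 panels.

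Some further B cell genes, and the plasma cell gene Jchain, were high in the same ventilated array, VALI replicate 2. Among 20 other B cell genes on the array VALI replicate 2 was highest for 7 (35%), beside 15.7% of all genes. VALI replicate 1 was lowest for 10 (50%), beside 3.87%. The 7 plasma cell markers averaged 0.33 above the control mean in VALI replicate 2, against -0.12 and -0.04 in VALI replicates 1 and 3. They averaged -0.15 to 0.21 in control arrays. Ighm, the heavy chain of immunoglobulin M, reached 12.81 in VALI replicate 2 and 9.84 to 11.77 in the other 11 arrays. Jchain, which joins secreted immunoglobulins, reached 10.53 there, against 7.49 to 9.54. The receptor gene for B cell survival Tnfrsf13c reached 7.87, against 6.09 to 6.60, and the transcription factor gene Spib 7.71, against 6.17 to 7.08. The array was singled out after its values were seen, and the labels do not say how the lungs were dissected.

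The effector cytokine gene Ifng, which was below the filter and not tested, stood apart in the same array. Its level was 6.16 in VALI replicate 2, against 3.95 to 4.26 in the other 11 arrays. For the tissues around B cells, the 4 markers of lymph node stroma and high endothelial venules on the array averaged 0.08 above the control mean in VALI replicate 2, against 0.18 and 0.12 in the other 2 VALI arrays. The 8 thymus markers averaged 0.10 above it in VALI replicate 2, against 0.03 and 0.05. Of these markers, 6 of the 8 thymus genes and 2 of the 4 lymph node genes were below the filter, at levels that could not be told from background. A part of lymph node or thymus tissue in the B cell values of that array was not tested beyond these levels.

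Of the 18 other B cell genes tested, 1 rose in rhPBEF & VALI against control and 0 fell, where 3.93% of all tested genes rose and 4.86% fell. It was Fcer2a, the low-affinity IgE receptor CD23, with 7.59, 7.87 and 7.28 in rhPBEF & VALI arrays, 8.05, 7.66 and 7.37 in rhPBEF arrays, and 6.90, 7.00 and 7.06 in VALI arrays, against 6.86, 6.96 and 6.95 in control arrays. All arrays that received PBEF were above all arrays that did not. The difference of rhPBEF & VALI from control was 0.66 ± 0.17 (adjusted p = 0.0415). The call was lost without any 1 of 7 arrays, all 3 controls, VALI replicate 1, rhPBEF replicate 2, and rhPBEF & VALI replicates 1 and 2, with a difference of 0.51 to 0.81. It was also lost without the 2 arrays high in muscle genes (adjusted p = 0.0607). Macrophages and eosinophils also express CD23. None of the 6 plasma cell markers tested passed in any comparison.

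None of the T cell genes passed the test, and the largest differences between rhPBEF & VALI and control were those of Il7r, Cd28 and Cd3d. Over the 16 T cell genes the mean was 0.20, 0.13 and 0.13 above control in rhPBEF & VALI arrays, 0.22, 0.29 and -0.10 in rhPBEF arrays, and 0.03, -0.26 and 0.23 in VALI arrays, against -0.02, -0.06 and 0.08 in control arrays. The 3 rhPBEF & VALI arrays were above the 3 control arrays, and the VALI arrays lay on both sides of them. In rhPBEF & VALI 12 of 16 T cell genes had a positive difference from control, with a median of 0.10 beside -0.04 over all genes. In rhPBEF 12 of 16 were positive, with a median of 0.08, and in VALI 8 of 16, with a median of 0.00.

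Il7r encodes the interleukin 7 receptor chain that naive and memory T cells need to survive. It had 8.97, 8.63 and 8.77 in rhPBEF & VALI arrays, 8.47, 9.05 and 8.20 in rhPBEF arrays, and 8.26, 7.76 and 9.04 in VALI arrays, against 7.97, 8.07 and 8.30 in control arrays. All rhPBEF & VALI arrays were above all control arrays, and the rhPBEF and VALI arrays overlapped both. The difference of rhPBEF & VALI from control was 0.67 ± 0.29, or 1.60-fold, with an interval of 0.04 to 1.31 and an adjusted p of 0.159. Its second probe set gave 0.70. With single arrays left out the difference was 0.58 to 0.77, with 0 of 12 fits past the threshold, and without rhPBEF replicate 2 and VALI replicate 3 together the adjusted p was 0.036.

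In rhPBEF against control Il7r differed by 0.46 ± 0.29 (adjusted p = 0.426) and in VALI by 0.24 ± 0.29 (adjusted p = 0.698). The highest Il7r level of each of these groups was in its array high in skeletal muscle genes, rhPBEF replicate 2 and VALI replicate 3. Whether muscle tissue had a part in those values was not tested. The VALI difference was -0.10 without VALI replicate 3.

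Cd3d, a chain of the T cell receptor complex, had 8.16, 8.10 and 8.09 in rhPBEF & VALI arrays, 8.13, 8.43 and 7.79 in rhPBEF arrays, and 7.75, 7.50 and 8.19 in VALI arrays, against 7.68, 7.55 and 7.82 in control arrays. All rhPBEF & VALI arrays again lay above all control arrays. The difference from control was 0.43 ± 0.18 in rhPBEF & VALI (adjusted p = 0.149) and 0.43 ± 0.18 in rhPBEF (adjusted p = 0.239). Its partner chains differed less, by 0.09 ± 0.12 for Cd3e and 0.12 ± 0.16 for Cd3g in rhPBEF & VALI (adjusted p = 0.689 and 0.672).

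Cd28, the costimulatory receptor of T cells, was below the filter. Its level was 6.34, 6.34 and 6.55 in rhPBEF & VALI arrays, 6.02, 6.34 and 5.68 in rhPBEF arrays, and 6.00, 5.79 and 6.43 in VALI arrays, against 5.84, 5.89 and 6.01 in control arrays. The rhPBEF & VALI arrays were above the control arrays, by 0.50 in the mean and by 0.70 on the second probe set. Cd2, an adhesion receptor of T and NK cells, went the other way, with 6.98, 6.76 and 7.12 in rhPBEF & VALI arrays, 7.11, 7.46 and 6.84 in rhPBEF arrays, and 7.46, 7.06 and 7.21 in VALI arrays, against 7.42, 7.31 and 7.23 in control arrays. The rhPBEF & VALI arrays lay below the control arrays, with a difference of -0.36 ± 0.16 (adjusted p = 0.165).

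Over the 32 genes, rhPBEF & VALI arrays were all above control arrays for 6, where that held for 11.2% of all genes on the array, and all below for 1, where it held for 19.7%. The 6 were Cd3d, Cd28, Lat, Il7r, Ccr7 and Klrd1, and the 1 was Cd2. Of these, 5 of the 6 and Cd2 are T cell genes. In rhPBEF against control 0 were all above (7.8% of all genes) and 1, Tbx21, all below (20.4%). In VALI against control 2 were all above, Blk and Eomes (9.77% of all genes), and 0 all below (12%). In rhPBEF & VALI against VALI 1 was all above, Cd247 (3.75% of all genes), and 1 all below, Blk (6.94%). In rhPBEF & VALI against rhPBEF the count was 0 in both directions (6.05% above and 3.73% below over all genes).

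Ccr7 guides naive T cells and mature dendritic cells to lymph nodes, and Lat is the adaptor that carries the receptor signal inward. Ccr7 had 8.01, 7.81 and 7.99 in rhPBEF & VALI arrays, 8.28, 8.10 and 7.57 in rhPBEF arrays, and 7.29, 6.87 and 8.04 in VALI arrays, against 7.56, 7.41 and 7.73 in control arrays. Its difference of rhPBEF & VALI from VALI, 0.54 ± 0.26, had the smallest adjusted p of the 24 genes in that comparison (0.527). Lat differed between rhPBEF & VALI and control by 0.26 ± 0.17 (adjusted p = 0.339). Both were lowest in VALI replicate 2, as were Cd3d, Cd3e, Cd3g, Cd247, Cd8b1, Cd27 and Il7r, 9 of the 16 T cell genes, in the array that was highest for B cell genes.

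The coreceptor genes Cd4, Cd8a and Cd8b1 gave no common direction. Cd4 lay between 7.49 and 7.83 in the 12 arrays and differed from control by 0.04 or less in each treated group. Its second probe set, with a mean of 5.70, differed by 0.05 in rhPBEF, 0.15 in VALI and -0.02 in rhPBEF & VALI. Cd8b1, the beta chain of CD8, had 7.24, 6.96 and 6.74 in rhPBEF arrays against 6.56, 6.35 and 6.78 in control arrays, a difference of 0.42 ± 0.18 (adjusted p = 0.246). The Cd8a probe set with the highest mean differed by -0.09 ± 0.10 in rhPBEF, and the other 4 Cd8a probe sets by -0.02 to 0.28. Those probe sets disagreed in sign, so no direction is given for Cd8a. Zap70, the kinase of the T cell receptor, and the surface receptor gene Cd6 differed from control by 0.08 or less in size in all treated groups, as did Cd5, a receptor that dampens T cell signalling. For Zap70 this holds for the probe set used, with a mean of 9.81. Its other probe sets, with means of 7.00 and 6.35, differed by 0.09 and -0.08 in rhPBEF, so no direction is given. Cd27, a receptor of the TNF receptor family, and Cd247, the CD3 zeta chain, were below the filter and lay at 4.88 to 6.25 and 5.99 to 6.56.

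**Figure D3:**
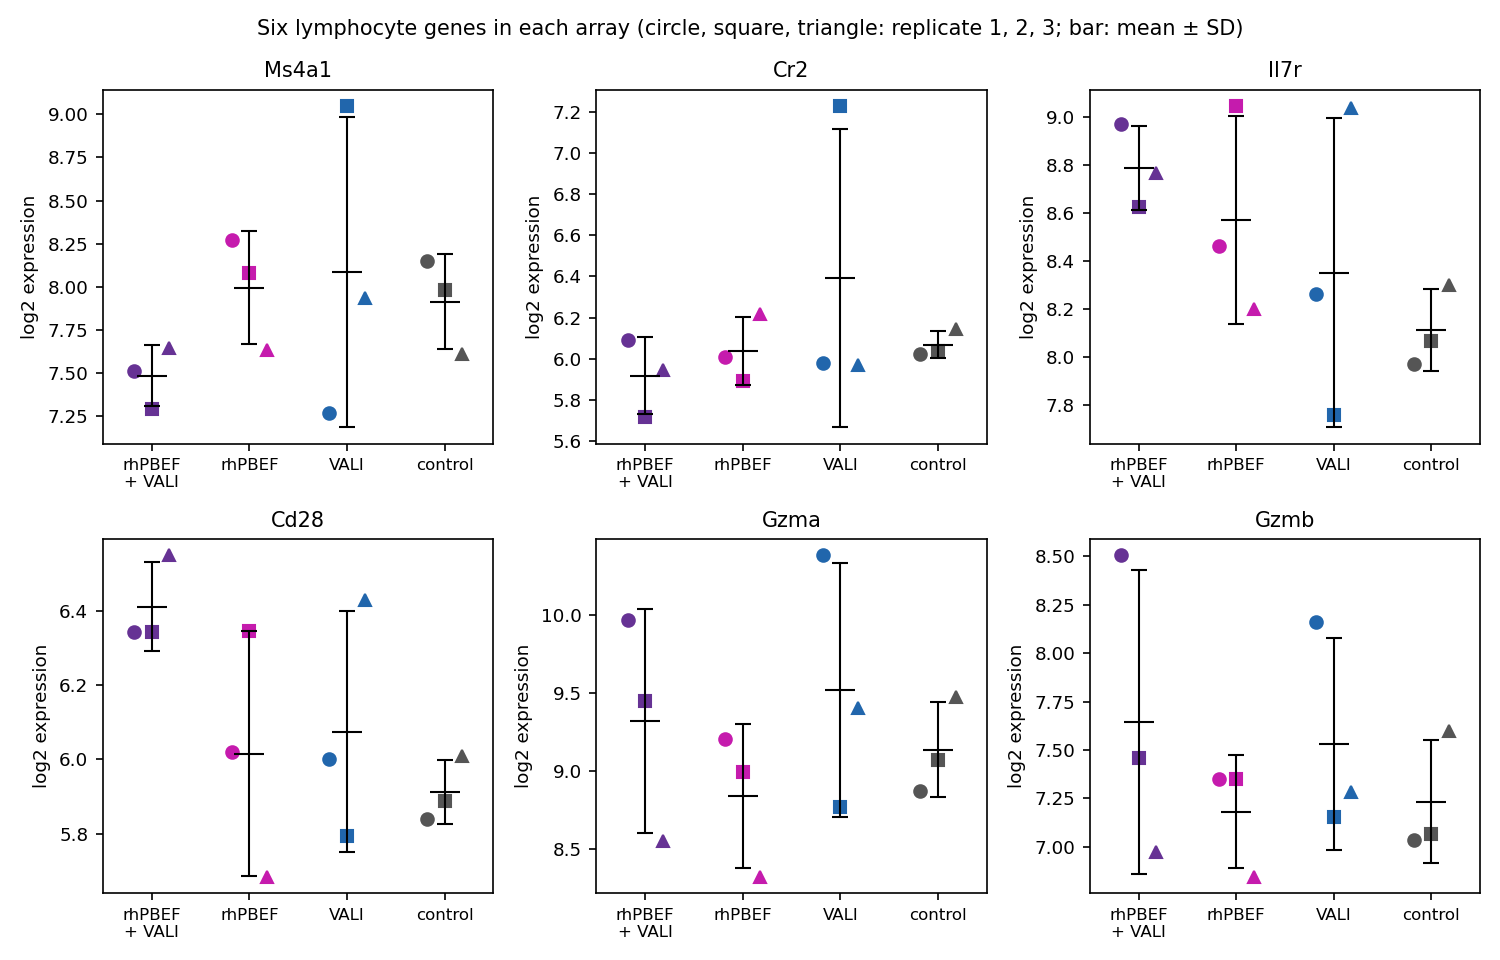
Log2 level (vertical axis, a separate scale for each gene) of Ms4a1, Cr2, Il7r, Cd28, Gzma and Gzmb in each array, with bars for the group mean ± SD (n = 3). VALI replicate 2 (square) is highest for Ms4a1 at 9.05 and Cr2 at 7.23, and the 3 rhPBEF & VALI arrays lie above the 3 control arrays for Il7r and Cd28.

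The NK and cytotoxic genes showed opposite average directions after the separate treatments, each smaller than the spread between arrays. All 9 had a negative difference after rhPBEF, with a median of -0.11 and a range of -0.30 to -0.04. After rhPBEF 11694 of all 18193 genes were negative, and the second probe sets of Prf1 and Eomes gave 0.04 and 0.01. All 9 had a positive difference after VALI, with a median of 0.18 and a range of 0.07 to 0.38. After VALI 8904 of all 18193 genes were positive, and the same second probe sets gave 0.06 and 0.41. None of the 9 genes passed the test, with smallest adjusted p of 0.755 and 0.656. The 9 genes share their arrays, and in several arrays most of them were high or low together. Their mean was 0.43, 0.16 and -0.28 relative to control in rhPBEF & VALI arrays, 0.02, 0.00 and -0.41 in rhPBEF arrays, and 0.60, -0.13 and 0.09 in VALI arrays, against -0.09, 0.01 and 0.08 in control arrays. The range within each treated group was wider than that of the control arrays. The negative mean after rhPBEF rested on replicate 3 at -0.41, and the positive mean after VALI on replicate 1 at 0.60.

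Gzma, which encodes granzyme A, a protease of cytotoxic granules, had 9.97, 9.45 and 8.55 in rhPBEF & VALI arrays, 9.20, 8.995 and 8.32 in rhPBEF arrays, and 10.38, 8.77 and 9.40 in VALI arrays, against 8.87, 9.07 and 9.47 in control arrays. Gzmb, for granzyme B, had 8.51, 7.46 and 6.97 in rhPBEF & VALI arrays, 7.35, 7.35 and 6.84 in rhPBEF arrays, and 8.16, 7.15 and 7.28 in VALI arrays, against 7.03, 7.06 and 7.60 in control arrays. Every treated group had arrays on both sides of the control mean for both genes. The difference from control was 0.18 ± 0.43 for Gzma and 0.41 ± 0.37 for Gzmb in rhPBEF & VALI (adjusted p = 0.815 and 0.507).

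In VALI those differences were 0.38 ± 0.43 for Gzma and 0.30 ± 0.37 for Gzmb (adjusted p = 0.673 and 0.704), and without VALI replicate 1 they were -0.05 and -0.02. In rhPBEF they were -0.30 ± 0.43 and -0.05 ± 0.37 (adjusted p = 0.755 and 0.96). Prf1, which encodes the pore-forming protein perforin, ranged from 6.36 in rhPBEF replicate 3 to 7.46 in VALI replicate 1. Nkg7, a granule membrane protein, had 7.87, 7.72 and 7.03 in rhPBEF & VALI arrays, 7.59, 7.53 and 7.00 in rhPBEF arrays, and 8.14, 7.27 and 7.53 in VALI arrays, against 7.32, 7.47 and 7.55 in control arrays. VALI replicate 1 was the highest of the 12 arrays for 5 of the 9 genes, Klrd1, Ncr1, Nkg7, Gzma and Prf1, and for 10.2% of all genes. The array was also the one with the lowest B cell mean.

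Klrd1, Klrk1 and Ncr1 encode the NK receptors CD94, NKG2D and NKp46. Klrd1 had 8.32, 8.12 and 8.04 in rhPBEF & VALI arrays, 7.96, 8.11 and 7.60 in rhPBEF arrays, and 8.50, 7.30 and 8.42 in VALI arrays, against 8.02, 8.03 and 7.96 in control arrays. Ncr1, below the filter, was 7.18 in VALI replicate 1 and 6.21 to 6.62 in the other 11 arrays. The T-box factors Eomes and Tbx21, which set the cytotoxic programme, were also below the filter. Tbx21 was 5.11, 5.16 and 4.79 in rhPBEF arrays against 5.27, 5.26 and 5.24 in control arrays, and Eomes was 6.31, 6.46 and 6.37 in VALI arrays against 6.06, 6.23 and 6.26 in control arrays. For Tbx21 and Eomes those groups did not overlap, at levels too low to be tested here. For Klrd1, which was tested, the lowest rhPBEF & VALI array, at 8.04, was just above the highest control array, at 8.03.

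Promoters of the cytotoxic genes are shown because Gzma, Gzmb and Nkg7 were high and low in many of the same arrays. In RefSeq (GRCm38.p6) 23 of the 33 genes had a promoter window, and the 250 bases before the start were searched on both strands for 9 short motifs. The motif TGTGGT, the core letters bound by RUNX factors, was in 6 of 8 NK and cytotoxic genes (Gzma, Gzmb, Klrk1, Ncr1, Nkg7 and Prf1), 2 of 11 T cell genes (Lck and Zap70) and 0 of 4 B cell genes. It was in 14% of all 32851 windows. For every motif a lymphocyte gene was counted if any of its windows held the letters. The shares over all windows are by window, so the units differ. This motif was singled out after the counts of all 9 were seen, it can occur by its letters alone, and no binding was measured. The 3 sequences run 5′ to 3′ along the gene's strand, with the motif or its reverse complement in capitals. They lie at chr13:113100982-113101231 (minus strand), chr14:56262335-56262584 (minus strand) and chr7:43436888-43437137 (plus strand).
Gzma: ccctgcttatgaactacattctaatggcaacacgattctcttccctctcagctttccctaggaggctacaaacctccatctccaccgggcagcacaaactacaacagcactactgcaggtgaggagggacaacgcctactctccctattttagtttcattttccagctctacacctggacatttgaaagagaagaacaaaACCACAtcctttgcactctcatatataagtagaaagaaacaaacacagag
Gzmb: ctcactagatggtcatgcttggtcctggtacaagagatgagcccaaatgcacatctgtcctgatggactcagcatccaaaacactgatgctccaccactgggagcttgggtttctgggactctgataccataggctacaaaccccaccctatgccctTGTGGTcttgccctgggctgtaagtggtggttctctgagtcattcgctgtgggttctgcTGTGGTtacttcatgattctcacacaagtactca
Nkg7: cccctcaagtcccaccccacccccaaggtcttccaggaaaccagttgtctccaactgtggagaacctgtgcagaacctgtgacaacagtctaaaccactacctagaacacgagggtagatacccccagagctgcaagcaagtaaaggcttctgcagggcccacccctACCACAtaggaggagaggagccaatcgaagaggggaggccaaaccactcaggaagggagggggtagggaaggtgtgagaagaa

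The capitals begin 50 bases before the start in Gzma, 93 and 34 bases before it in Gzmb, and 83 bases before it in Nkg7. Among the other motifs, the ETS letters AGGAAG were in 8 of 11 T cell promoters and 3 of 8 NK and cytotoxic promoters, beside 29.5% of all windows. The PU.1 letters GAGGAA were in 7 of 11 T cell promoters and 0 of 8 NK and cytotoxic promoters, beside 23.3% of all windows. The ETS and PU.1 letters can overlap in sequence.

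Over the 32 genes the median SD between arrays of a group was 0.16 in rhPBEF & VALI, 0.24 in rhPBEF and 0.32 in VALI, against 0.11 in control. Over all 18193 genes it was 0.12, 0.11 and 0.14, against 0.09 in control. VALI was the group with the widest spread for 18 of the 32 lymphocyte genes, and for 7222 of all 18193 genes, the most of any group in both.

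In other lists of lymphocyte genes, single genes passed the test in the groups given PBEF. Cd69, the early activation receptor that holds lymphocytes in tissue, had 7.38, 6.87 and 7.07 in rhPBEF & VALI arrays, 7.06, 6.96 and 6.49 in rhPBEF arrays, and 6.06, 6.78 and 6.77 in VALI arrays, against 5.62, 5.30 and 5.88 in control arrays. All 9 treated arrays were above the 3 control arrays. Cd69 rose by 1.51 ± 0.23 in rhPBEF & VALI (adjusted p = 0.00687) and by 1.23 ± 0.23 in rhPBEF (adjusted p = 0.0296), and differed by 0.93 ± 0.23 in VALI (adjusted p = 0.14). The rhPBEF & VALI call held without each of the 12 arrays in turn, and the rhPBEF call was lost without any 1 control or rhPBEF replicate 1 or 2. Myeloid cells can also express Cd69.

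Of 10 other T cell genes tested, 4 rose and 0 fell in rhPBEF & VALI against control, beside the shares of 3.93% and 4.86% over all tested genes, and 0 passed in the other comparisons. They were Lcp2 at 1.45 ± 0.30 (adjusted p = 0.0209), Fyb at 1.21 ± 0.23 (0.0153), Satb1 at 0.89 ± 0.21 (0.0296) and Icos at 0.58 ± 0.13 (0.0265). Lcp2 and Fyb encode signalling adaptors that myeloid cells use too, Satb1 a chromatin organiser of T cells, and Icos a costimulatory receptor of activated T cells. Icos had 7.29, 7.16 and 6.92 in rhPBEF & VALI arrays, 6.66, 6.92 and 6.84 in rhPBEF arrays, and 6.88, 7.12 and 7.24 in VALI arrays, against 6.72, 6.42 and 6.49 in control arrays. The rhPBEF & VALI arrays and the VALI arrays were all above the control arrays, and rhPBEF replicate 1 lay within the control range. Icos differed by 0.54 ± 0.13 between VALI and control (adjusted p = 0.137).

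Those 4 calls were lost in some fits without 1 array, while the differences kept their direction. They ranged over 1.10 to 1.84 for Lcp2, 0.91 to 1.39 for Fyb, 0.70 to 1.07 for Satb1 and 0.50 to 0.68 for Icos. Over all tested genes the calls fell from 1136 to 189, 192 or 263 without a control array. They fell to 152 or 171 without rhPBEF & VALI replicate 1 or 2. The Lcp2 and Icos calls were lost without any 1 control or rhPBEF & VALI replicate 1 or 2, the Satb1 call without any 1 control or rhPBEF & VALI replicate 1, and the Fyb call without control replicate 1 or 2. Of the 12 neutrophil markers, 9 rose in rhPBEF & VALI against control, where 3.93% of all tested genes did. In rhPBEF against control 5 rose, where 0.936% did. The summed level of that list, as a mean per gene, was 9.95 to 11.63 in rhPBEF & VALI arrays, 10.27 to 10.67 in rhPBEF arrays and 8.85 to 10.90 in VALI arrays, against 8.00 to 8.25 in control arrays. The part of myeloid cells in the Cd69, Lcp2 and Fyb values was not tested.

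Of 10 other NK and cytotoxic genes tested, 1 rose in rhPBEF & VALI and the same gene rose in rhPBEF, both against control. In rhPBEF & VALI against control 3.93% of all tested genes rose and 4.86% fell, and in rhPBEF against control 0.936% rose and 0.286% fell. The gene was Il18rap, the accessory chain of the interleukin 18 receptor, which myeloid cells can also express. Its level was 9.88, 9.15 and 8.58 in rhPBEF & VALI arrays, 9.29, 9.24 and 8.70 in rhPBEF arrays, and 8.97, 8.42 and 8.40 in VALI arrays, against 7.48, 7.76 and 7.75 in control arrays. All treated arrays exceeded the control arrays. It rose by 1.54 ± 0.29 in rhPBEF & VALI (adjusted p = 0.0147) and by 1.41 ± 0.29 in rhPBEF (adjusted p = 0.0457). The rhPBEF & VALI call was lost without control replicate 1 or 2 or rhPBEF & VALI replicate 2, and the rhPBEF call without any 1 of 6 arrays, among them all 3 controls.

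The genes with the largest rises in the lymphocyte lists in rhPBEF & VALI against control were the chemokine genes Ccl20 and Cxcl10. Ccl20, the ligand of a receptor on B cells, memory T cells and dendritic cells, had 11.83, 11.49 and 11.07 in rhPBEF & VALI arrays, 10.71, 10.57 and 12.22 in rhPBEF arrays, and 7.28, 7.43 and 6.74 in VALI arrays, against 7.49, 7.22 and 7.14 in control arrays. The PBEF arrays were separated from the others by over 3 log2 units. Ccl20 was 4.18 ± 0.38 above control in rhPBEF & VALI (adjusted p = 0.000414) and 4.31 ± 0.38 above VALI (adjusted p = 0.00119), and both calls held without each of the 12 arrays in turn. Cxcl10, a chemokine for activated T cells and NK cells, rose by 3.90 ± 0.71 in rhPBEF & VALI (adjusted p = 0.0138) and by 3.80 ± 0.71 in rhPBEF (adjusted p = 0.0285).

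In rhPBEF & VALI against control 3 of 9 lymphocyte chemokines tested rose and 0 fell, where 3.93% of all tested genes rose and 4.86% fell. The third was Ccl17 at 2.22 ± 0.62 (adjusted p = 0.0488), a call lost without any 1 of 9 arrays. In VALI against control 0 of 9 passed, where 0.00774% of all tested genes did. The Cxcl10 call was lost in rhPBEF & VALI without control replicate 2 or rhPBEF & VALI replicate 1 or 2, and in rhPBEF without any 1 control or rhPBEF replicate 1 or 2. Of 6 lymphocyte growth cytokines tested 1 rose in rhPBEF & VALI against control (3.93% of all tested genes), the alarmin gene Il33, by 1.32 ± 0.29 (adjusted p = 0.0244), a call lost without any 1 of 4 arrays.

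Among 13 receptors and regulators of lymphocyte homing and egress, 2 rose and 1 fell in rhPBEF & VALI against control, beside 3.93% and 4.86% of all tested genes. Besides Cd69, Selplg, the selectin ligand of leukocytes, rose by 0.87 ± 0.21 (adjusted p = 0.0326). Klf2, a transcription factor of resting T cells and of endothelium under flow, had 11.02, 11.07 and 11.08 in rhPBEF & VALI arrays, 11.87, 12.05 and 12.35 in rhPBEF arrays, and 11.63, 10.69 and 10.84 in VALI arrays, against 12.53, 11.90 and 12.29 in control arrays. It fell by 1.18 ± 0.23 on the log2 scale in rhPBEF & VALI (adjusted p = 0.0177). The endothelial marker genes Eng, Ramp2 and Sox18 fell in the same comparison, with Eng at -0.67 ± 0.09 (adjusted p = 0.00499), and the part of endothelium in the Klf2 value was not tested. The Klf2 and Selplg calls were lost without single arrays, 4 and 5 of the 12.

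In VALI against control no gene of these lists passed the threshold, where 0.00774% of all tested genes did. With so few calls over all genes, the lack of calls does not show that these genes were unchanged. The other T cell gene Fyb differed by 1.07 ± 0.23 between VALI and control (adjusted p = 0.112) and Il18rap by 0.94 ± 0.29 (adjusted p = 0.197). Klf2 differed by -1.19 ± 0.23 (adjusted p = 0.0967). In rhPBEF & VALI against control the differences of Fyb, Il18rap and Klf2 were 1.21, 1.54 and -1.18. Among the other B cell genes the largest differences in VALI were 0.54 ± 0.33 for Tnfrsf13c and 0.50 ± 0.20 for Blnk, an adaptor of the B cell receptor (adjusted p = 0.433 and 0.287). Both were highest in VALI replicate 2, Blnk at 8.83 there against 7.69 to 8.26 in the other 11 arrays.

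In rhPBEF & VALI against VALI 1 gene of the lymphocyte lists rose, Ccl20, and 0 fell, where 0.31% of all tested genes rose and 0.0155% fell. None passed in rhPBEF & VALI against rhPBEF. The largest difference of the homing list in that comparison was that of Klf2, -1.03 ± 0.23 (adjusted p = 0.623). Fcer2a differed between rhPBEF & VALI and VALI by 0.59 ± 0.17 (adjusted p = 0.236) and Cd69 by 0.57 ± 0.23 (adjusted p = 0.447).

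**Figure D4:**
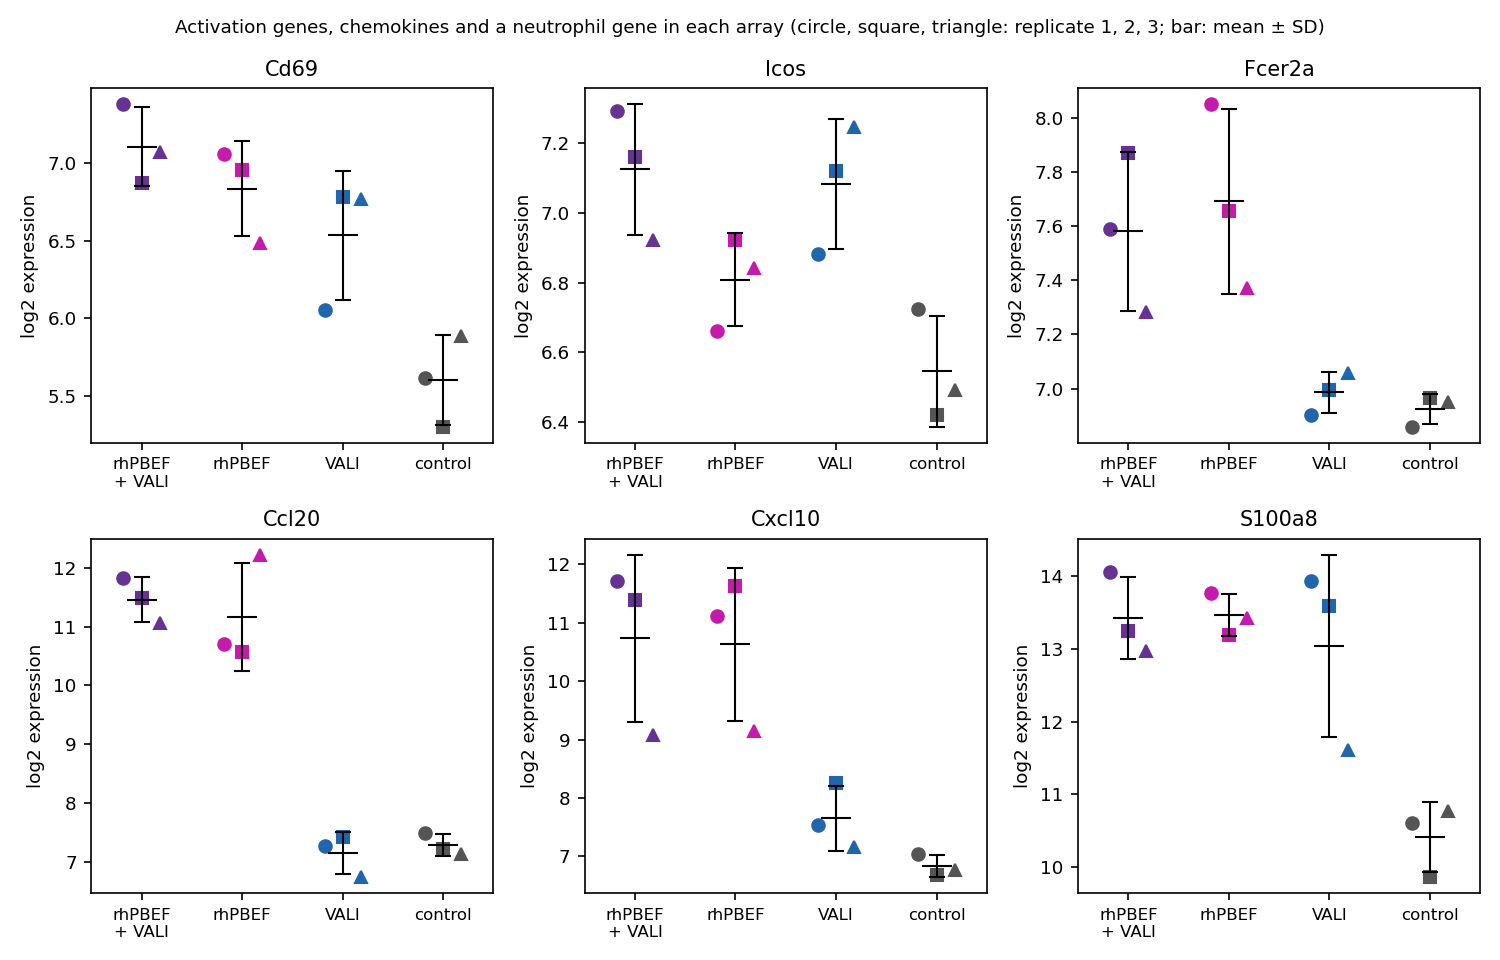
Log2 level (vertical axis, a separate scale for each gene) of the activation gene Cd69, the costimulatory receptor gene Icos, the B cell receptor gene Fcer2a, the chemokine genes Ccl20 and Cxcl10 and the neutrophil gene S100a8 in each array, with bars for the group mean ± SD (n = 3). Cd69 is above all control arrays in all 9 treated arrays, and Fcer2a, Ccl20 and Cxcl10 separate the arrays that received PBEF from those that did not.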

How the data were processed

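RNA of 12 mouse lung samples was measured on Affymetrix arrays, and groups were taken from the sample titles. The authors deposited log2 expression values, 1 per probe set and array, already comparable between arrays. The submitters' processing notes name MAS5 and GCRMA without roles or versions, and the normalization of the table is not given in the sources used here. Values ran from 2.99 to 15.02 with array medians of 7.00 to 7.07, and 0 array columns were identical. The table holds no detection calls, so low levels could not be told from background, and precision is limited by the number of arrays.

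Of 45101 probe sets 64 controls were left out. Of the rest 34945 carried 1 gene symbol in the platform annotation, 932 several and 9160 none, and only the first were used. The Entrez identifiers of 32 lymphocyte genes matched the reference gene table with 0 symbols changed. Each gene took its probe set with the highest mean, and those above the 40th percentile (6.42) were tested, 12921 of 18193 genes. In limma 3.58.1 (R 4.3.3) 4 group means were fitted over 12 arrays (8 residual and 2.99 prior degrees of freedom), with Benjamini-Hochberg adjustment over all tested genes. An exact two-sided test of 3 against 3 arrays cannot go below 0.1.

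The lymphocyte genes and all other lists were chosen with earlier results of these data known. By the rule for named genes, values of every array were given for the 2 tested genes with the largest differences in each of the B, T and NK groups and each pairwise comparison. From other lists the genes past the threshold were named, at most 4 by size, or else the 2 with the largest differences. Other genes were named after their values were seen. Replicate numbers were not used to pair the arrays in the main fit, and the labels do not say whether they stand for a pairing. The deviations of same-numbered arrays correlated at -0.21 to 0.34 for number 1, -0.19 to 0.07 for number 2 and -0.07 to 0.53 for number 3.

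Alternatives changed the filter, the normalization, the variance model, the probe sets, the arrays in the fit and the replicate block, and left out each array in turn. Leaving out VALI replicates 1 and 2 together was chosen after seeing the data. Scripts were first checked on simulated data. Promoters came from RefSeq (GRCm38.p6). Python 3.11.15 and matplotlib 3.10.9 drew the figures.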

Additional observations from a re-analysis of the deposited data

How the results depend on the processing

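The zero counts of lymphocyte genes past the threshold held in all 6 comparisons with no filter, a stricter filter, median centring, quantile normalization, a trended and robust variance, and the mean of all probe sets. They also held with each array left out in turn (0 to 0). Without VALI replicates 1 and 2 together the VALI group is 1 array, assumed to vary like the other groups, and its counts of 0 say nothing about stability. With the replicate block the count was 0 in every comparison as well. Array weights, which ranged from 0.20 for VALI replicate 2 to 4.57 for rhPBEF & VALI replicate 2, gave 7 genes for rhPBEF & VALI against control (Ms4a1, Cd22, Cd3d, Cd8b1, Cd2, Lat and Il7r), 2 for rhPBEF against control (Cd3d and Cd8b1) and 1 for rhPBEF & VALI against VALI (Cd2), where 44.7%, 11.2% and 5.22% of all tested genes passed. Weights were estimated gene by gene because the REML estimate stopped before convergence. With only the groups of the comparison in the fit 2 genes passed for rhPBEF & VALI against control (Cd3d, adjusted p = 0.0336, and Il7r, adjusted p = 0.0304), and without rhPBEF replicate 2 and VALI replicate 3 together 1 passed (Il7r, adjusted p = 0.036). The cause was not tested. Over all genes array weights moved the count past the threshold to 5781, against 1136, for rhPBEF & VALI against control, to 1450, against 158, for rhPBEF, to 279, against 1, for VALI, and to 674, against 42, for rhPBEF & VALI against VALI. Single arrays left out gave 152 to 2498, 44 to 358, 0 to 43 and 13 to 406 genes in the same order.

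The median difference of the lymphocyte genes in rhPBEF & VALI against VALI was -0.086 to 0.088 with single arrays left out, the highest without rhPBEF & VALI replicate 3. The median of the interaction was -0.15 to 0.058, the lowest without rhPBEF replicate 3, and 0.087 without rhPBEF replicate 2 and VALI replicate 3 together. Differences that changed sign when single arrays were left out ranged, for VALI against control, over -0.049 to 0.75 for Gzma, -0.015 to 0.49 for Gzmb, -0.31 to 0.58 for Ms4a1, -0.49 to 0.095 for Ccr7 and -0.10 to 0.54 for Il7r. For rhPBEF & VALI they ranged over -0.14 to 0.57 for Gzma and -0.018 to 0.75 for Gzmb against control, and over -0.57 to 0.23 for Gzma and -0.32 to 0.45 for Gzmb against VALI. Klrd1 in rhPBEF against control ranged over -0.22 to 0.031. With array weights Ms4a1 in VALI against control was -0.41 and Gzmb in rhPBEF & VALI against VALI -0.28. Without rhPBEF replicate 2 and VALI replicate 3 Il7r in VALI against control was -0.10 and Gzmb in rhPBEF & VALI against VALI -0.013. Without VALI replicates 1 and 2 Ccr7 in VALI against control was 0.47, and rhPBEF & VALI against VALI was -0.10 for Ccr7 and -0.25 for Il7r. None of these differences was past the threshold before or after. Of the remaining values for named genes 602 kept their direction and side of the threshold. With 3 arrays in each group, and no detection calls, changes of the 8 low genes may lie below what the arrays can resolve.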

Other observations

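Ccr7, Cd4 and Il7r are also expressed by some dendritic cells. Of 6 dendritic cell markers tested 1 rose in rhPBEF & VALI against control and 0 fell, where 3.93% of all tested genes rose and 4.86% fell. It was Batf3, a transcription factor of cross-presenting dendritic cells, at 0.73 ± 0.18 (adjusted p = 0.0367 in limma, lost without any 1 of 5 arrays). Batf3 differed by 0.74 ± 0.18 in rhPBEF against control (adjusted p = 0.083). Of 11 monocyte and macrophage markers, 1 rose and 1 fell in the same comparison, beside those shares over all genes. Marco, a scavenger receptor of macrophages, rose by 1.65 ± 0.31 (adjusted p = 0.0147), and Siglecf, a receptor of alveolar macrophages and eosinophils, fell by 1.03 ± 0.24 on the log2 scale (adjusted p = 0.029). The calls were lost without any 1 of 4 arrays for Marco and any 1 of 5 for Siglecf.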
